A study of Arabidopsis thaliana with 4 samples.

Results

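The genes described here are 5 alternative oxidases of Arabidopsis thaliana (AOX1A, AOX1B, AOX1C, AOX1D and AOX2) and 5 genes that are known to respond to, or to transmit, trouble in the mitochondria: the NADH dehydrogenase NDB2, the transcription factors ANAC013 and ANAC017, the outer membrane protein OM66 and the stress transcript UPOX. Their loci are AT3G22370, AT3G22360, AT3G27620, AT1G32350 and AT5G64210 for the oxidases in that order, and AT4G05020, AT1G32870, AT1G34190, AT3G50930 and AT2G21640 for the others. They were chosen by locus, 10 of them, from a count table of 24904 loci. Of the 10, 9 have a row in that table and 8 had enough counts to be tested, out of 20200 genes tested in all. AOX1B has no row and is not analysed here.

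Plants respire electrons along either of a pair of routes in the inner mitochondrial membrane. The cytochrome route pumps protons and makes ATP, whereas alternative oxidase takes electrons straight from ubiquinol to oxygen without pumping protons. When the cytochrome route is blocked or oxidants build up, the nucleus raises a set of transcripts, of which AOX1A is the classical marker. ANAC017, held at the endoplasmic reticulum and released from it by cleavage, is known as a regulator of this retrograde response, and ANAC013 is both one of its targets and an activator of the same genes.

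Both groups came from wild type Col-0 plants grown for 6 weeks in short days, 8 h of light and 16 h of dark, under light of 60 µmol photons m-2 s-1. The leaf group is whole leaf that was not digested. The protoplast group is cells freed from mature leaves after the lower epidermis was pulled away with tape and cuts were made beside the main vein, by 2 h in 1% cellulase and 0.3% macerozyme with 0.6 M mannitol and DTT, followed by washing and filtering. Each group has 2 libraries of poly(A) RNA. Several leaves went into each digestion, the hour of collection is not given, and peeling, digestion, osmolyte and washing are all part of the same difference between the groups.

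The libraries held 39958035 to 48503141 counts. Levels are given as CPM, depth-normalised counts on library sizes scaled with TMM factors, and changes as log2 fold changes, protoplast minus leaf, tested with edgeR's quasi-likelihood test at an adjusted p of 0.05 over all tested genes. Most of the transcriptome differed: 80.5% of tested genes passed the test, 39.8% higher and 40.7% lower in protoplasts, and the median log2 fold change was -0.04. Of all calls 49.4% were higher with TMM factors, 35.9% with upper-quartile factors, 36.1% with scaling to 10 reference genes and 23.5% with library size only. The median moved to -0.37, -0.36 and -0.85 with these last 3, so log2 fold changes below are relative to the TMM median. The 10 reference genes were themselves not level: with TMM factors 5 rose and 2 fell, and 1 of them, HEL, had 0 leaf counts and 76 and 63 protoplast counts. With so few libraries no exact 2-sided permutation test of 1 value can reach a p under 0.333.

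In protoplasts 7 of the 8 tested genes rose, 0 fell and AOX1C did not pass the test. At an unadjusted p under 0.05 edgeR also had 0 lower, and so did DESeq2 and limma-voom. Of all tested genes 39.8% rose and 40.7% fell. Of those tested by the other tools 34% rose with DESeq2 and 39.6% with limma-voom. The share that rose was 41.1% with RLE, 30.6% with upper-quartile factors, 30.2% with 10 reference genes and 21.4% with library size only. It was 36.4% with no filter, 39.9% with a filter of 10 counts in every library of 1 group, 38.5% with a replicate block, 39.5% without organelle loci and 19.7% in a test for a change of over 2-fold. Leaving out leaf replicate 1 or 2 gave 38.4% or 38.6%, and leaving out protoplast replicate 1 or 2 gave 36.9% or 38%. The median log2 fold change of the 8 was 1.90, against -0.04 for all tested genes. AOX1D and AOX1A rose most, NDB2, OM66 and UPOX followed, and the regulators ANAC013 and ANAC017 rose least.

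AOX1A, the main stress-inducible alternative oxidase of leaves, had 23.7 and 21.5 CPM in the leaf libraries and 372.8 and 398 CPM in the protoplast libraries. Both protoplast libraries were far above both leaf libraries. The log2 fold change was 4.09 ± 0.07 (SE, adjusted p = 1.34e-14), a 17.0-fold rise. Its raw counts, 1320 and 1238 in leaf and 13806 and 11908 in protoplasts, are deep enough that counting error is small.

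AOX1D, an isoform known to be raised when AOX1A is missing, was nearly silent in leaf with 12 and 7 counts, or 0.215 and 0.121 CPM. In protoplasts it had 1479 and 1155 counts, or 39.9 and 38.6 CPM. The groups lay far apart. Groups that did not overlap were common among all tested genes, at 90.3%, with protoplasts higher in 43.9% and leaf higher in 46.4%. The log2 fold change was 7.85 ± 0.14 (SE, adjusted p = 4.30e-14). That SE understates the error: it was 0.35 with DESeq2 and 0.30 with limma-voom. Because leaf held only 19 counts, the ratio of 235 has a 95% counting interval of 150.1 to 390.8.

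AOX2 and AOX1C stayed rare in both groups. AOX2, an isoform best known from seeds, had 1 count in each leaf library against 11 and 14 after digestion, and the filter on low counts set it aside. Its ratio was 21.2 with a counting interval of 5.28 to 184.5, and DESeq2 without that filter gave a log2 fold change of 4.45 (adjusted p = 0.00333), the value that the authors' deposited table also holds. AOX1C, with 11 counts in either leaf library, had 6 and 0 after digestion. Its log2 fold change was -1.09 ± 0.76 (SE, adjusted p = 0.199), and it passed the test with library size only (adjusted p = 0.0210) and when protoplast replicate 1 was left out (0.0227), where the remaining protoplast library had 0 counts. The 4 oxidases are similar in sequence and the counter is not given, so the division of reads among them is uncertain.

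**Figure D1:**
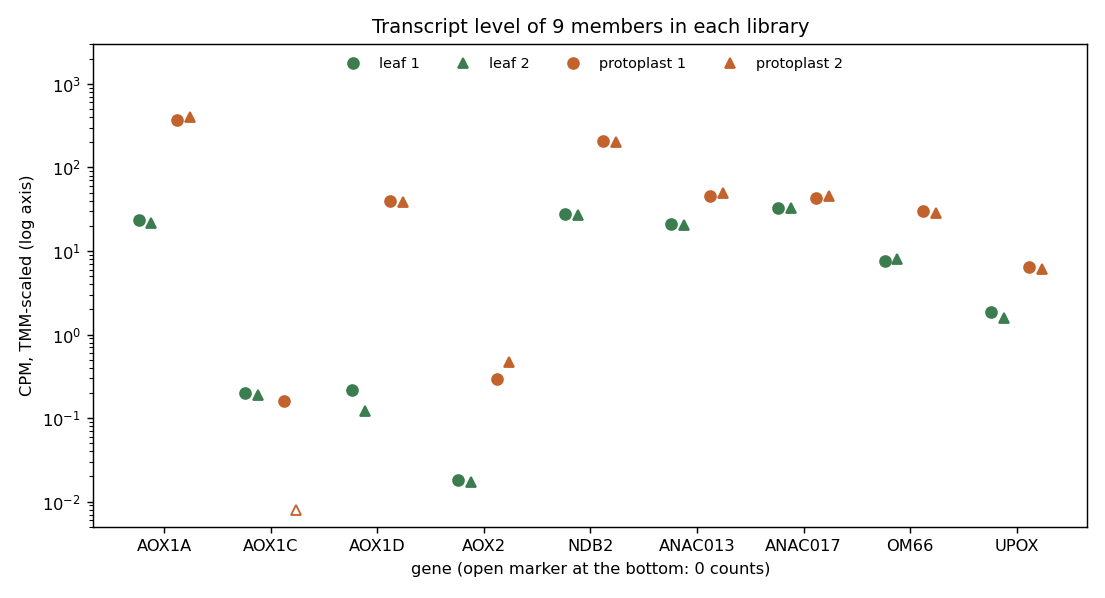
CPM, scaled with TMM factors, of 9 genes in each of 4 libraries on a log axis; green marks leaf, orange protoplasts, circles replicate 1 and triangles replicate 2, and the open triangle marks 0 counts. AOX1A goes from 21.5 to 23.7 CPM in leaf to 372.8 to 398 in protoplasts, and AOX1C is the only one of the 9 whose protoplast libraries lie below leaf.

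Per kb of exon, the alternative oxidases together had 13.7 and 12.4 CPM in leaf and 237.9 and 251.3 CPM in protoplasts, an 18.7-fold difference. Exon lengths are from RefSeq's TAIR10.1 annotation, since the gene models behind the counts are not given, so levels between genes are approximate. AOX1A made up 97.8% and 98.1% of this sum in leaf and 88.9% and 89.8% in protoplasts. AOX1D took 1.03% and 0.641% in leaf and 11.003% and 10.1% in protoplasts. The ratio of AOX1A to AOX1D, which needs no scaling between libraries, went from 95.2 and 153 in leaf to 8.08 and 8.92 in protoplasts.

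The plastid terminal oxidase IM, a relative of alternative oxidase that works in the chloroplast, rose less. It had 38.4 ± 0.4 CPM in leaf against 73.7 ± 3.3 CPM in protoplasts (mean ± SD, n = 2), and its log2 fold change was 0.94 ± 0.06 (SE, edgeR adjusted p = 6.77e-09).

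NDB2 feeds electrons from cytosolic NADH into ubiquinone at the outer face of the inner membrane and is known to be induced together with AOX1A. It had 27.6 and 27.2 CPM in leaf and 208.3 and 203.1 CPM in protoplasts. The replicates were close and the groups did not overlap. The log2 fold change was 2.91 ± 0.05 (SE, adjusted p = 4.42e-14), smaller than that of AOX1A. Per kb of exon AOX1A stood at 1.25 and 1.15 times NDB2 in leaf and at 2.60 and 2.85 times NDB2 in protoplasts.

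The other type II NAD(P)H dehydrogenases moved little beside NDB2. Of the 6 others, 4 were tested, 4 rose and 0 fell (also 0 lower at an unadjusted p under 0.05, with DESeq2 and with limma-voom), with a median log2 fold change of 0.73. NDB1, also on the outer face, had 14.0 ± 0.5 CPM in leaf against 28.9 ± 1.2 CPM in protoplasts (n = 2). NDA1, on the inner face and known to be light-responsive, had 181.7 ± 5.1 and 307.3 ± 18.2 CPM (n = 2). NDA2 and NDC1, an enzyme also found in plastids, had log2 fold changes of 0.69 and 0.54. With library size only NDA1, NDA2 and NDC1 turned to -0.048, -0.11 and -0.27, and 1 of the 4 was called higher and 1 lower. NDB3 had 6 and 7 leaf counts and 0 in both protoplast libraries, with 1 of the list called lower when no filter was applied, and NDB4 had 1 to 3 counts in every library, both too few to test.

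Genes of the cytochrome route showed no common direction. Of 15 tested genes for subunits, electron carriers and a copper chaperone, 5 rose, 5 fell and 5 did not pass the test. The median log2 fold change was 0.03, and the copper chaperone was among those that rose. The gene for cytochrome c, CYTC-2, had 25.9 ± 1.3 CPM in leaf against 81.6 ± 1.4 CPM in protoplasts (n = 2). The gene AT5G25450, listed here as the cytochrome route subunit QCR7-2, rose from 15 counts in each leaf library to 532 and 432, and it overlaps other annotated loci. At the lower end AT3G15640 and AT3G62400 fell by 0.82 and 0.59 on the log2 scale. Fewer rose and more fell with other scalings: 3 and 10 with upper-quartile factors, 3 and 9 with scaling to 10 reference genes and 3 and 12 with library size only.

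Set against the summed counts of these 15 genes in the same library, which frees the comparison from scaling between libraries, AOX1A stood at a log2 ratio of -4.57 and -4.66 in leaf and of -0.72 and -0.67 in protoplasts, a difference of 3.92. The same log2 ratio for NDB2 was -4.35 and -4.32 in leaf and -1.56 and -1.64 in protoplasts, a difference of 2.73. For OM66 and UPOX the ratios differed by 1.76 and 1.70 between the groups, for ANAC013 by 1.01 and for ANAC017 by 0.28. For each of these 6 genes both protoplast libraries lay above both leaf libraries. On CPM that held for 43.9% of all tested genes, and the share for this ratio was not computed. The ratio takes the 15 genes as level. With TMM factors their sum was 563.2 and 543.3 CPM in leaf and 616.2 and 633.1 CPM in protoplasts, and other scalings move it. Division by 1 sum per library moves all genes by the same amount, so the order among the genes is no separate result.

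**Figure D2:**
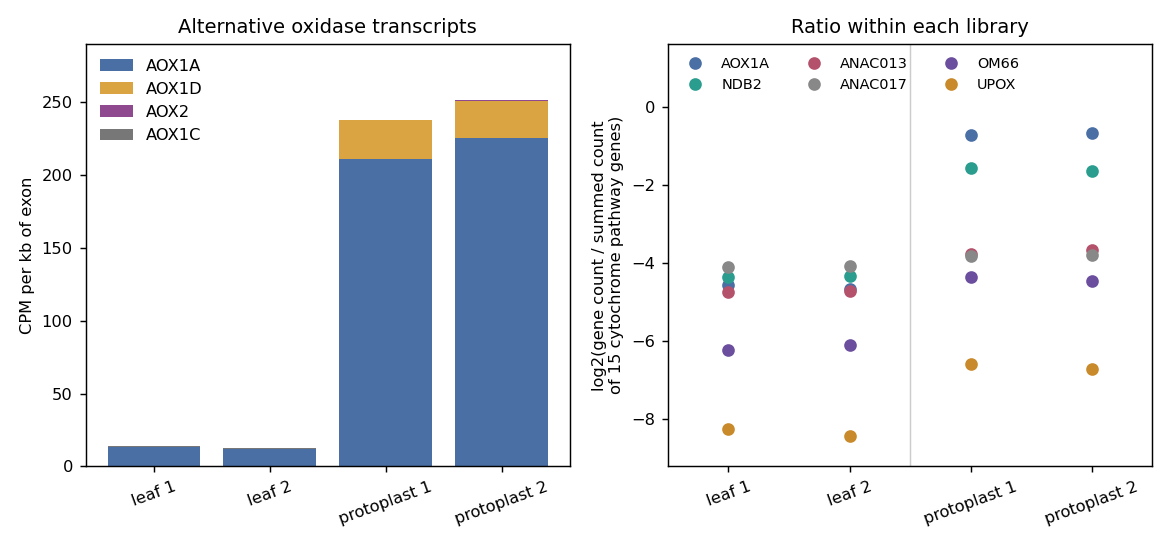
Left, CPM per kb of exon of 4 alternative oxidases stacked in each library on a linear axis from 0. Right, log2 of each gene's count over the summed count of 15 cytochrome pathway genes in the same library, with leaf left of the grey line; the AOX1D segment appears in the protoplast bars at 11.003% and 10.1%, and ANAC017 moves least, by 0.28.

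The pair of regulators had the smallest log2 fold changes among the 7 genes that rose. ANAC013 had 21.0 and 20.7 CPM in leaf and 45.1 and 49.6 CPM in protoplasts, a log2 fold change of 1.18 ± 0.06 (SE, adjusted p = 3.18e-09). Both protoplast libraries were above leaf, and the fold change fell to 0.37 with library size only, where the gene was still called. In the RefSeq annotation ANAC013 overlaps AT1G32880 on the other strand. That locus had 0 leaf counts and 47 and 43 protoplast counts, against 1671 and 1483 for ANAC013, and although the library kit was directional, the strand setting of the counter is not given.

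ANAC017 had 32.7 and 32.4 CPM in leaf and 43.5 and 45.5 CPM in protoplasts. The groups did not overlap, but the step was the smallest of the 7 genes that rose, with a log2 fold change of 0.45 ± 0.06 (SE, adjusted p = 1.16e-05). Its call depended on the scaling. Upper-quartile factors gave 0.12 (adjusted p = 0.0624), 10 reference genes 0.13 (adjusted p = 0.122) and library size only the opposite direction, -0.36 (adjusted p = 3.36e-05). Within a library the log2 ratio of ANAC013 to ANAC017 counts was -0.64 in both leaf libraries and 0.05 and 0.12 in the protoplast libraries.

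Among 7 other NAC factors that carry or are related to ones carrying a membrane anchor, 5 rose, 0 fell and 2 did not pass the test with TMM factors. None fell at an unadjusted p under 0.05, with DESeq2 or with limma-voom either, the median log2 fold change was 1.36, and 1 fell with upper-quartile factors or 10 reference genes and 2 with library size only. NAC062, a factor known from cold and unfolded protein responses, had 21.2 ± 0.6 CPM in leaf against 219.7 ± 1.8 CPM in protoplasts (n = 2). TIP, a partner of a viral coat protein, had 25.7 ± 0.4 and 236 ± 1.7 CPM (n = 2). NAC2 had a log2 fold change of 1.36, and NAC082, known from ribosomal stress, one of 0.40 (-0.40 by library size only). NAC016, the neighbour of ANAC017 in the genome, had 26 and 39 leaf counts against 13 and 14 in protoplasts, a log2 fold change of -0.50 that did not pass the test (adjusted p = 0.218); it was named after its value was seen.

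Of 9 other regulators reported for AOX1A, 8 have a row and were tested, and 6 rose and 2 fell, with a median log2 fold change of 1.00. WRKY40, described as a repressor of mitochondrial stress genes, rose from 18.4 ± 0.1 to 754.5 ± 28.2 CPM (n = 2, log2 fold change 5.36 ± 0.06, SE). WRKY63, described as an activator of the same genes, had 0 and 2 leaf counts against 36 and 32 in protoplasts, a ratio of 57.6 with a counting interval of 15.3 to 485.3. MYB29, which drives aliphatic glucosinolate synthesis and was reported as a negative regulator of AOX1A, fell from 36.2 ± 1.8 to 0.564 ± 0.148 CPM (n = 2, log2 fold change -6.03 ± 0.13, SE). Its 17 and 20 protoplast counts gave a ratio of 0.0153 with a counting interval of 0.0107 to 0.0211, so that SE is too small. KIN10, a catalytic subunit of the SnRK1 energy-sensing kinase, fell by 0.65 on the log2 scale. RCD1, a nuclear protein known to bind and restrain ANAC013 and ANAC017, was named after its value was seen: it rose from 230.7 ± 1.2 to 597.9 ± 13.5 CPM (n = 2).

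OM66 is an AAA ATPase of the outer mitochondrial membrane, listed as BCS1 in the reference. It had 7.48 and 7.94 CPM in leaf and 30.2 and 28.6 CPM in protoplasts. The log2 fold change was 1.93 ± 0.08 (SE, adjusted p = 1.16e-10), with no overlap between the groups. Of 4 related ATPases, 3 were tested, of which 1 rose and 2 fell. AT2G18193 rose from 15 and 19 counts to 141 and 111. AT3G50940, the neighbour of OM66, had 29 counts in either leaf library against 11 and 6 after digestion, a ratio of 0.497 (adjusted p = 0.0300) whose call ended when any of the 4 libraries was left out (adjusted p = 0.0579 to 0.175) and with DESeq2 (adjusted p = 0.257). AT3G28580 also had a ratio of 0.497 (adjusted p = 0.0434), and its call ended when leaf replicate 1 (0.170) or protoplast replicate 1 (0.424) was left out, with RLE factors (0.0503) and with DESeq2 (0.246).

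UPOX, a short mitochondrial protein whose transcript is annotated as a marker of oxidative stress, had 1.87 and 1.58 CPM in leaf and 6.48 and 6.08 CPM in protoplasts. The counts behind this were 104 and 91 in leaf and 240 and 182 in protoplasts. Its log2 fold change was 1.87 ± 0.15 (SE, adjusted p = 1.10e-07), and both protoplast libraries exceeded both leaf libraries.

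**Figure D3:**
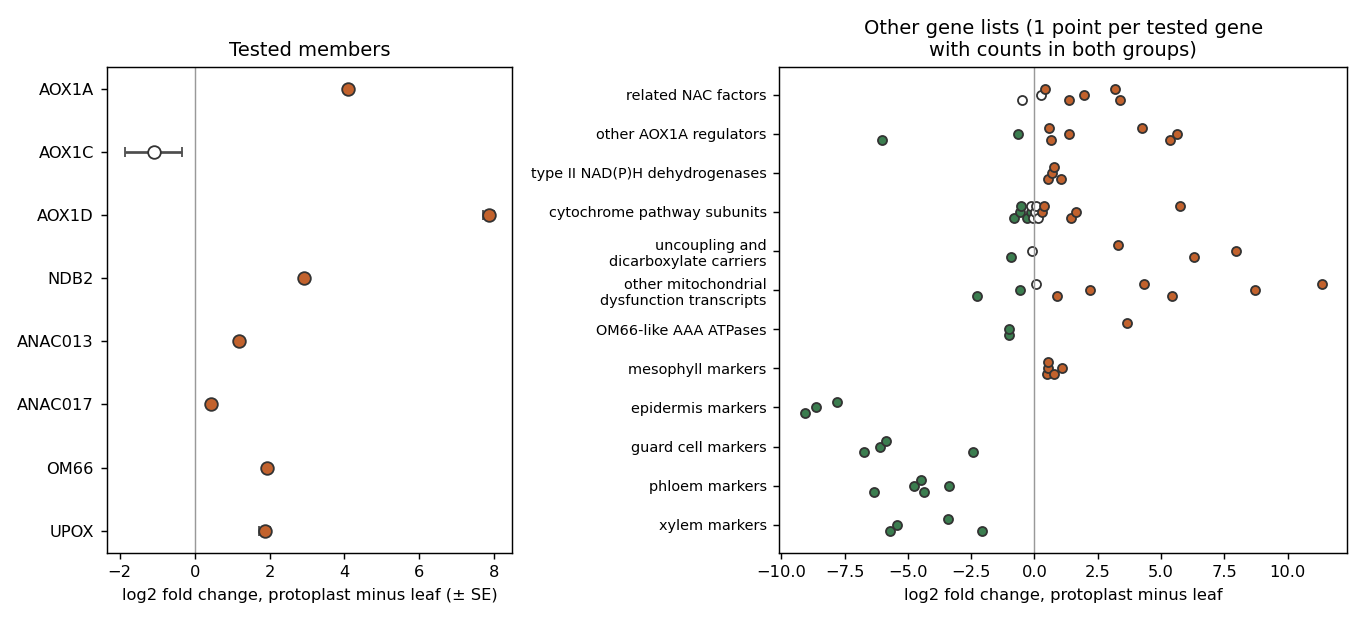
Left, log2 fold change of the 8 tested genes with SE bars. Right, 1 point per tested gene with counts in both groups for 12 other lists; orange points rose, green points fell and white points did not pass the test, so that AOX1D at 7.85 and AOX1A at 4.09 stand far right on the left panel and the cytochrome pathway subunits straddle 0 on the right.

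Other transcripts known from mitochondrial dysfunction spread widely. Of 11, 9 were tested, 6 rose, 2 fell and 1 did not pass the test, with a median log2 fold change of 2.18. CYP81D8, a cytochrome P450 common to many stress responses, had 2.39 ± 0.15 CPM in leaf against 997.3 ± 9.5 CPM in protoplasts (n = 2). UGT74E2, which conjugates an auxin precursor, had 6 and 4 leaf counts against 9034 and 6843 in protoplasts. MGE2, a co-chaperone of mitochondrial HSP70, fell by 0.59 on the log2 scale. AT2G04050, a MATE efflux protein, had 14 and 12 leaf counts against 1 and 2 in protoplasts, a ratio of 0.196 with a counting interval of 0.0379 to 0.638, and its call ended with DESeq2 (adjusted p = 0.146) and when leaf replicate 1 (0.0707) or protoplast replicate 1 (0.130) was left out.

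Carriers of the inner membrane that exchange dicarboxylates rose, while the uncoupling proteins UCP2 and PUMP1 did not. The names overlap, since the reference lists DIC1 as UCP5. Of 5 carriers 3 rose, 1 fell and 1 did not pass the test, with a median log2 fold change of 3.31, and 2 fell with upper-quartile factors, 10 reference genes or library size only. DIC1 rose from 27.0 ± 0.4 to 2103 ± 7.5 CPM (n = 2), DIC2 from 45.1 ± 0.3 to 448 ± 10.9 CPM (n = 2), and DIC3 from 9 and 14 counts to 1932 and 1517. UCP2 fell by 0.91 on the log2 scale. PUMP1, an uncoupling protein named after its value was seen, had 33.6 ± 0.9 and 31.5 ± 1.9 CPM (n = 2, log2 fold change -0.10, adjusted p = 0.175 by edgeR).

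Cell type markers moved with these differences. In bulk RNA, fewer cells of a type and less RNA per cell cannot be told apart. All 5 mesophyll markers rose with TMM factors and 3 with scaling to 10 reference genes, while with library size only 1 rose and 3 fell. RCA and RBCS1A turned to -0.29 and -0.28 with library size only. LHCB4.1 turned to -0.027 there, which did not pass the test (edgeR adjusted p = 0.61). The summed mesophyll level was 33480 to 33629 CPM in leaf and 50015 to 51078 CPM in protoplasts. Of 5 epidermis markers, 4 were tested and fell, and CER4 and PDF1 were at 0 in both protoplast libraries; the sum went from 580.7 to 593 CPM in leaf to 1.17 to 1.49 CPM. All 5 guard cell markers fell, with ALMT12 at 0 in protoplasts, from a sum of 42.2 to 43.6 CPM to one of 2.41 to 2.46 CPM. All 5 phloem markers fell, from 669.2 to 700.1 CPM to 23.999 to 25.4 CPM in sum, and all 4 xylem markers from 17.2 to 18.8 CPM to 1.43 to 1.47 CPM. The part of this shift in the changes of the alternative oxidase and retrograde genes was not tested.

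Per kb of exon the order of levels in leaf was AOX1A at 12.8 CPM, ANAC017 at 12.4, NDB2 at 10.7, ANAC013 at 10.7, OM66 at 2.90, UPOX at 2.34, AOX1C at 0.144, AOX1D at 0.110 and AOX2 at 0.0133, as means of 2 libraries. The libraries of AOX1A and ANAC017 overlapped in leaf, as did those of NDB2 and ANAC013. AOX1C, with 11 counts in either leaf library, and AOX1D, with 12 and 7, are too rare there for their order to be certain. In protoplasts the order was AOX1A at 218.5 CPM per kb, NDB2 at 80.3, AOX1D at 25.7, ANAC013 at 24.2, ANAC017 at 16.9, OM66 at 11.1, UPOX at 8.55, AOX2 at 0.289 and AOX1C at 0.0602. In protoplasts AOX1D, near the bottom in leaf, overlapped with ANAC013 and lay above ANAC017 in both libraries.

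The genes most like AOX1A across the 4 libraries were AMT2, an ammonium transporter, LEA14, a late embryogenesis abundant protein, and ERD15, known from early responses to dehydration. Likeness was the root mean square difference of log2(CPM + 0.5) after centring each gene on its mean, and came to 0.0233, 0.0237 and 0.0331 on the log2 scale. Their log2 fold changes were 4.16, 4.05 and 4.08, and 129 of 5456 eligible genes lay within 0.25 of AOX1A; the 4 points per gene are shared libraries, and the measure mainly reflects the difference between 2 groups.

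**Figure D4:**
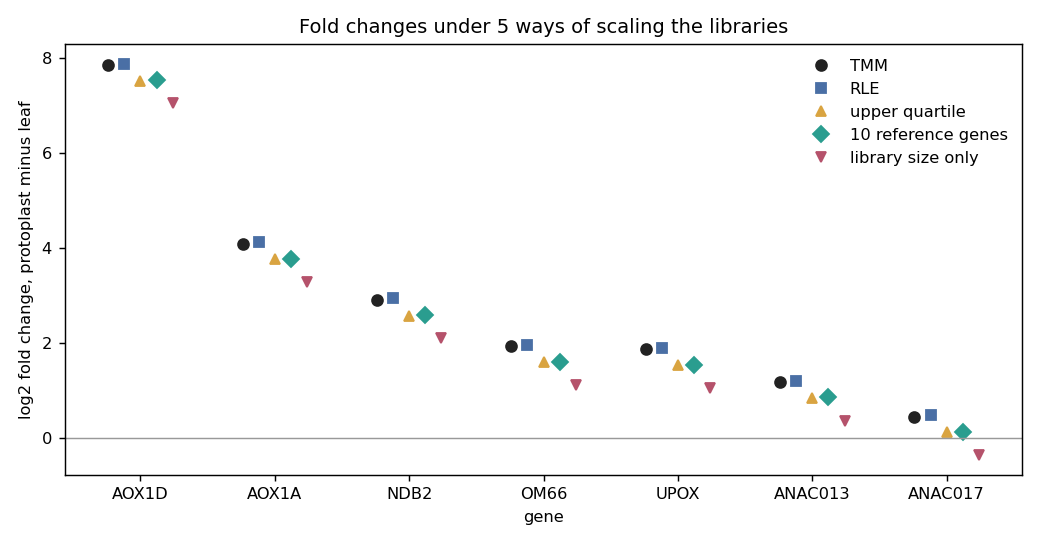
Log2 fold change, protoplast minus leaf, of 7 genes under 5 ways of scaling the libraries. The points of each gene shift down together from TMM to library size only, by which AOX1A goes from 4.09 to 3.29 and ANAC017 from 0.45 to -0.36, the only gene of the 7 to cross 0.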

How the data were processed

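The count table was deposited as whole-number read counts per locus, without normalization. Per the submitters' processing notes the tools included STAR and DESeq, with no version. No build, gene annotation, read counter or strandedness is given in the sources used here. From the authors' deposited comparison table only the log2 fold change and the adjusted p-value were read, named so per the file headers, for the genes described. Names, neighbours and exon lengths came from RefSeq TAIR10.1, which matched 24651 loci by locus tag; no coordinates or sequences are given because the build of the counts is not known.

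Counts were filtered with filterByExpr of edgeR 4.0.16 in R 4.3.3 (20200 loci kept, 4704 set aside), scaled with TMM factors and tested with the quasi-likelihood F test, with group as the only term and Benjamini-Hochberg adjustment over all genes. Each SE was taken from the log2 fold change and the root of its F statistic, as their quotient. For a large change with few counts in a group, such an SE can be smaller than counting error, as for AOX1D and MYB29. On simulated data with 200 changed genes among 19841, all 100 with a log2 change of 1 and all 100 with one of 2 were recovered, with 7 false calls. The changed genes were drawn from those with higher counts, balanced up and down, with a common biological coefficient of variation of 0.0486. In the data 80.5% of tested genes passed, so the simulation cannot judge the scaling, the false calls or genes with few counts here. Ratios have exact 95% counting intervals on counts pooled over the libraries of a group, which leave out variation between replicates. PCR copies cannot be told from separate molecules, so even counting error may be larger than they show. The series calls the libraries of a group biological replicates but does not say which plants or days they came from, so p-values reflect only how far these libraries differ, and that may be technical variation; replicates differed by more than sampling noise (chi-square per degree of freedom 5.2 for leaf, 10.4 for protoplasts).

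Members and lists were chosen with earlier results of these data known. Named genes are the 10 members, in each list the 2 called genes at either end (of those for markers and reference genes only some are printed), and the 3 genes most like AOX1A. NDB3, NDB4, PDF1, NAC016, RCD1 and PUMP1 fall outside this rule and were named after their values were seen. Alternatives were RLE and upper-quartile factors, library size only, 10 reference genes, other filters, DESeq2 1.42.0, voom of limma 3.58.1, a replicate block, leaving out each library, and leaving out organelle loci. A test for a change of over 2-fold (glmTreat) was added after seeing the data.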

Additional observations from a re-analysis of the deposited data

How the results depend on the processing

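AOX1A, AOX1D, NDB2, ANAC013, OM66 and UPOX were called higher under all 14 alternatives other than the 2-fold test, with log2 fold changes of 3.29 to 4.16, 7.05 to 8.30, 2.10 to 2.94, 0.37 to 1.23, 1.13 to 1.97 and 1.07 to 1.99. The number of the 10 genes called higher, 7, was 6 to 8 under every alternative. It was 8 where AOX2 was tested and called higher, and 6 where ANAC017 was not called higher. The number called lower, 0, became 2 (ANAC017 and AOX1C) with library size only and 0 to 1 when 1 library was left out. Over all genes, 8036 higher and 8231 lower calls became 4326 and 14057 with library size only and 3988 and 3157 with the test for a change of over 2-fold. With library size only the log2 fold changes of ANAC017, NDC1, NDA2, NDA1, NAC082, RCA, RBCS1A and LHCB4.1 turned to -0.36, -0.27, -0.11, -0.048, -0.40, -0.29, -0.28 and -0.027, since that scaling lowers every fold change by about the same amount. Shared replicate numbers are not stated to mark a plant or day. With a replicate block 7782 genes were higher and 7868 lower, 7 of the 10 genes were higher and 0 lower, and AT3G50940 and AT3G28580 were no longer called (adjusted p = 0.0677 and 0.0751 by edgeR); the deviations of same-numbered libraries correlated at -0.0793 over genes. Depth limits AOX1C, AOX2, NDB3 and NDB4, each with 14 or fewer counts in every library.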

Other observations

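Among the 20200 tested genes, 1.98% had a log2 fold change at or above that of AOX1D, 7.71% at or above that of AOX1A, 10.9% at or above that of NDB2, 14.8% at or above that of OM66, 15.1% at or above that of UPOX, 20.0% at or above that of ANAC013 and 33.4% at or above that of ANAC017. For AOX1C, which did not pass the test, the share was 81.5%.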
